A study of Mus musculus with 13 samples.

Results

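The semaphorins, plexins and neuropilins are families of guidance genes, and their 31 members in mouse were followed here through the cell types of the liver. They were chosen by symbol alone, as every gene named Sema3 to Sema7 with a letter (20 semaphorins), Plxna to Plxnd with a number (9 plexins), Nrp1 or Nrp2 (2 neuropilins), out of 55353 gene symbols listed. All 31 had unique molecular identifiers (UMIs, 1 per captured transcript) in the cells of the 5 types compared, between 78 for Sema5b and 248495 for Plxnc1.

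Male C57BL/6J mice of 6 to 12 weeks received chow containing DDC (3,5-diethoxycarbonyl-1,4-dihydrocollidine) at 0.1%, a porphyrinogenic diet that injures small bile ducts, or no DDC at D0. The atlas held 12 droplet libraries, 1 per isolation protocol at D0 (steady state, 2 libraries), at D3 and D5 (onset, 4 libraries) and at D9, D19 and D25 (progression, 6 libraries). D19 B was labelled as day 18. Another library, STOP, came from mice given 7 days of recovery after the prolonged diet, with protocol B. Protocol A mixed unselected live singlets with cells sorted for Epcam, Pdpn, Lyve-1 or Cd45, with Cd31+ cells lacking Lyve-1 and with cells showing retinoid autofluorescence. Protocol B mixed live cells from a stellate cell preparation with Epcam+ cells, Itgax+ leukocytes lacking Cd64 and Cd3e+ cells lacking Lyve-1. No label ties a library to a mouse, so errors and p-values measure the spread between libraries, which may be technical. The sort fixed how many cells of a type were loaded, and shares of cell types are therefore not given.

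Libraries held between 29307190 and 108602421 UMIs. Barcodes with at least 1500 UMIs were taken as cells, which left 87083 in the atlas with a median of 3350 to 12013 UMIs per cell. No 2 of the 13 libraries shared more than 49 cell barcodes. Each cell was given to the marker panel, out of 13, of which it showed the most genes, if it showed at least 3 and at least 2 more than of any other. No panel held a guidance gene. Of the atlas cells, 61250 (70.3%) fell into the 5 types compared, namely 28663 liver sinusoidal endothelial cells (LSEC), 3813 biliary epithelial cells (BEC), 10700 macrophages, 8310 conventional dendritic cells (DC) and 9764 T cells. All names stand for marker-gated cells. The means of panel genes that follow are over the cells of all libraries including STOP. As the gate requires, cells showed many genes of their own panel, with a mean of 6.56 of 8 panel genes per LSEC, 6.35 of 8 per BEC, 6.97 of 10 per macrophage, 5.36 of 12 per DC and 6.97 of 10 per T cell. Macrophage-gated cells also showed a mean of 1.76 of the 8 LSEC genes, against 0.754 in DC and 0.383 in T cells. BEC reached the minimum of 20 cells in 9 libraries, of which D0 A was the only 1 from steady state, and the other types did so in all 12. D0 B stood apart by its low share of mitochondrial UMIs, which was 0.642% in DC and 1.54% in LSEC against 1.59% to 3.31% and 3.37% to 9.02% in the other atlas libraries.

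Semaphorins were first described as cues that repel growing axons. Class 3 members are secreted, classes 4 to 6 span the membrane, and Sema7a is held by a lipid anchor. Most signal through plexins, whose cytoplasmic part acts on small GTPases and the cytoskeleton, while most class 3 members need Nrp1 or Nrp2 as a co-receptor. Neuropilins also bind vascular endothelial growth factors, so both families are well known in blood vessels, and Sema4a, Sema4d and Sema7a are known from immune cells.

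The 5 types carried different sets of these genes. LSEC held the highest mean level of 14 genes, BEC of 10, DC of 3, and macrophages and T cells of 2 each. These counts are given without the share of all genes highest in each type, and are not set against it. Some leads were narrow. Sema4b was highest in BEC in 4 of 9 libraries and Sema3g in LSEC in 6 of 12. Sema4d was highest in T cells in 7 of 12 libraries and Sema5b in 2 of 12. Leaving out 1 library changed the type with the highest mean for 1 gene, Sema5b, whose mean in T cells rested on 1 UMI in the 28 T cells of D19 A, and without D19 A it was 0.257 CPM in T cells and 0.324 in BEC. Promoter sequences are shown for 7 of the genes that set the types apart, the receptors Plxnc1, Nrp1, Plxnd1 and Nrp2 of LSEC, Plxnb1 and Sema5a of BEC and Sema7a of DC, so that the DNA of genes with a shared pattern can be compared. Each is the stretch from 250 to 51 bases before the transcript start in RefSeq (GRCm38.p6), 5′ to 3′ on the strand of the gene. The stretches are upstream of the annotated start of the transcript listed, and overlap with exons of other transcripts was not checked. Capitals mark 2 motifs searched on both strands, AGGAAG, the core bound by ETS factors (CTTCCT on the other strand), and GGGCGG, the GC box (CCGCCC on the other strand), and the 2 shared no base.
Plxnc1, chr10:94944896-94945095 (- strand): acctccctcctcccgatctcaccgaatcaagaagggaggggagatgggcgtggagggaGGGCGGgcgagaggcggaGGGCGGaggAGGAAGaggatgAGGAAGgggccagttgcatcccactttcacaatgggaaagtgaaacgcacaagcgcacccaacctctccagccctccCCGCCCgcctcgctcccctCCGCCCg
Nrp1, chr8:128358823-128359022 (+ strand): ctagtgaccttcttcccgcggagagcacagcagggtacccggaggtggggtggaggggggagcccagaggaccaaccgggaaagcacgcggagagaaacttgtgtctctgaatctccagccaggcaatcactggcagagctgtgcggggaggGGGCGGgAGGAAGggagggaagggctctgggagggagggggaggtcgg
Plxnd1, chr6:115995056-115995255 (- strand): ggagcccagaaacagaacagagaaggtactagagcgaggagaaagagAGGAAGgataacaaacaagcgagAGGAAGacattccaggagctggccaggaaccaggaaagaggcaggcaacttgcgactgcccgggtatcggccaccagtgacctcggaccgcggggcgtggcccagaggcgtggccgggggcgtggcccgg
Nrp2, chr1:62703067-62703266 (+ strand): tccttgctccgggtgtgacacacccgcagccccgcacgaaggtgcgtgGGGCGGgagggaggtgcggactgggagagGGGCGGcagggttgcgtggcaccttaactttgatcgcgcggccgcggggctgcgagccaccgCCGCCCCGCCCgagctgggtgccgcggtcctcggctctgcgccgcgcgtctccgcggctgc
Plxnb1, chr9:109095186-109095385 (+ strand): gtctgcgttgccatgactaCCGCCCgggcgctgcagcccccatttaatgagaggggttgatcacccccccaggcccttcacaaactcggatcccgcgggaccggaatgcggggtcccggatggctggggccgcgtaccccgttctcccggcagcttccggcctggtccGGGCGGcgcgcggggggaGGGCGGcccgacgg
Sema5a, chr15:32244563-32244762 (+ strand): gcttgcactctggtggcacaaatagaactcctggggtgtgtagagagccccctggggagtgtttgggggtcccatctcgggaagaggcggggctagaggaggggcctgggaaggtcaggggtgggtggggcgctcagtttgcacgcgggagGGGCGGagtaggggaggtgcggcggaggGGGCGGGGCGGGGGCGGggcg
Sema7a, chr9:57939862-57940061 (+ strand): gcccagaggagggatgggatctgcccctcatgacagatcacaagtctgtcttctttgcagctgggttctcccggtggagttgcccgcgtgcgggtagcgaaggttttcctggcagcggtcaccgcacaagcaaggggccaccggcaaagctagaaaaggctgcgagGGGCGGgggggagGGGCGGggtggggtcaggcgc
Plxnc1 and Plxnd1 held 2 ETS cores each and Nrp1 held 1, whereas none was found in this stretch of Nrp2, Plxnb1, Sema5a or Sema7a. The GC box was found 4 times in Plxnc1, Nrp2 and Sema5a, 3 times in Plxnb1, 2 times in Sema7a, once in Nrp1 and not in Plxnd1. In the same stretch, from 250 to 51 bases before the start, 15 of 37 promoters of 26 members (40.5%) held an ETS core. A GC box was held by 19 (51.4%), and the shares of all 32851 promoters listed were 23.9% and 24.6%. The median GC content of this stretch was 62.5% for members and 51.5% for all promoters. For 5 members no promoter was listed. A match is a description of the letters only.

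LSEC, the fenestrated endothelium of the sinusoids, stood out by their receptors. Levels are given as CPM, the UMIs of a gene per 1000000 UMIs of a cell type in a library, a scale that counts molecules of 3′ libraries and needs no correction for length. Plxnc1, the receptor of Sema7a, was the most abundant guidance gene with 1246 ± 275 CPM (SD, n = 12 libraries) and ranged from 745.5 (D25 B) over a median of 1341 to 1592 (D5 A). It ranged from 15.1 to 189 in macrophages, 22.7 to 125 in DC, 8.30 to 136 in T cells and 2.91 to 22.6 in BEC. LSEC were above every other type in each library, while macrophages, DC and T cells overlapped each other. Nrp1, the co-receptor of class 3 semaphorins and VEGF-A, reached 968 ± 267 CPM in LSEC, with a lowest, median and highest value of 591.5, 968 and 1534. In macrophages it lay at 148 ± 57.8 and in the other types between 36.9 ± 7.09 (BEC) and 65.8 ± 17.5 (DC). Plxnd1, the receptor of Sema3e, reached 662 ± 98.0 CPM in LSEC (489 to 844) and 85.6 ± 27.3 in macrophages. Nrp2, the co-receptor of Sema3f and VEGF-C, reached 464 ± 85.3 CPM in LSEC (329 to 648) and 71.8 ± 22.4 in macrophages. The A-type plexins of LSEC were Plxna2 (190.5 ± 47.7) and Plxna4 (51.2 ± 12.9), receptors of Sema6a among others, and LSEC ranked first for both in 12 of 12 libraries.

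**Figure D1:**
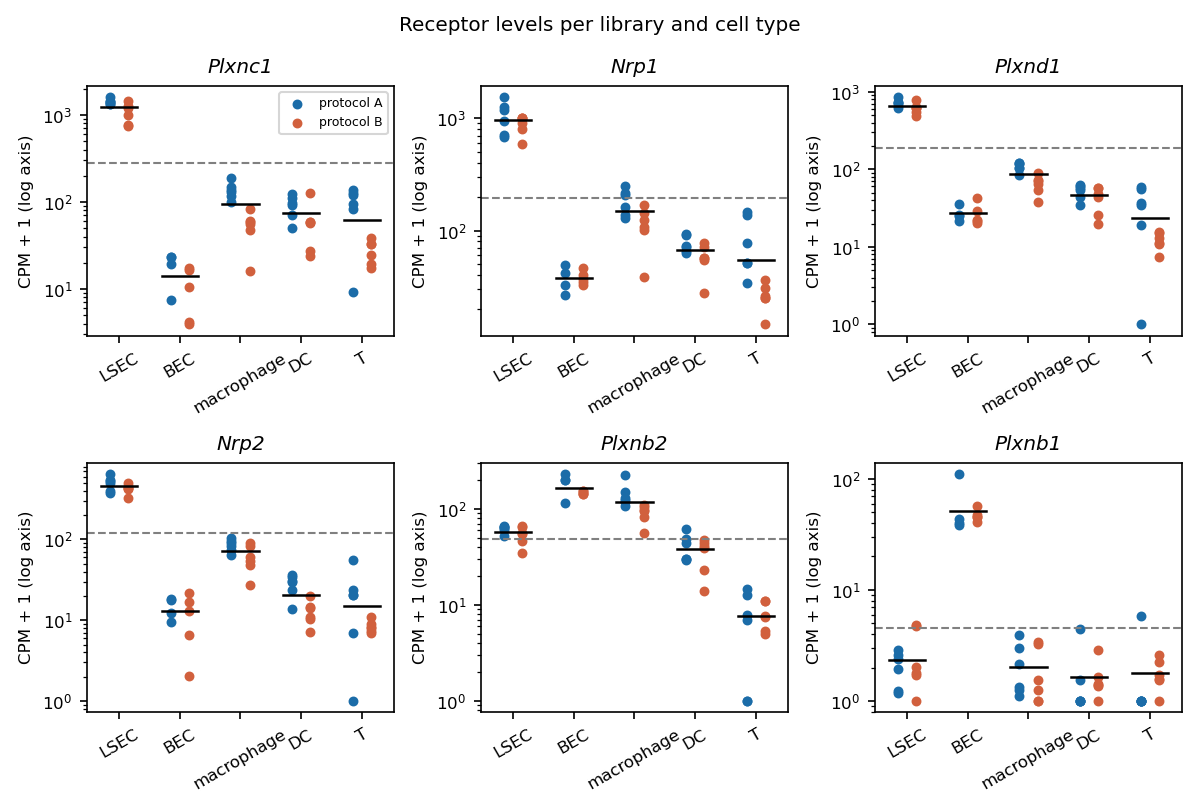
Levels of 6 receptor genes in each atlas library, as CPM + 1 on a log axis, in 5 marker-gated cell types. Points are libraries (blue protocol A, orange protocol B) and black lines are means. The dashed line is the CPM in barcodes of 10 to 100 UMIs, pooled over all libraries including STOP. LSEC lie above all other types for Plxnc1, Nrp1, Plxnd1 and Nrp2, and BEC for Plxnb1.

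LSEC also expressed ligands. Sema6a, a membrane-bound ligand of A-type plexins, stood at 476 ± 93.9 CPM in LSEC (373.5 to 706) and at 74.2 ± 43.9 in BEC. Sema3f, the secreted ligand of Nrp2, was found at 232 ± 50.7 CPM (113.5 to 297), and BEC followed with 34.5 ± 12.0. Sema6d (123.5 ± 28.8), Sema4c (107 ± 27.9), Sema6b (60.3 ± 9.75) and Sema3d (44.3 ± 16.2) had their highest level in LSEC as well. Sema6d was an exception among them in that macrophages exceeded LSEC in 3 of 12 libraries. Sema3a, the founding repellent of the class, was low at 3.82 ± 2.80 CPM.

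The edgeR quasi-likelihood test on the summed UMIs, with the library as a block, set each type against the mean of the other 4. It tested 28 of the 31 genes, as Plxnb3, Sema5b and Sema6c did not pass the filter on low counts, and used Benjamini-Hochberg adjustment over all 15102 genes tested. In LSEC 24 members were called, 17 higher and 7 lower, where 77.5% of all genes tested were called and 39.1% were called higher. The median log2 fold change was 1.91 for the members and −0.04 for all genes. The largest were Plxna2 (4.95 ± 0.15, SE), Plxnc1 (4.76 ± 0.13), Sema6a (4.75 ± 0.17), Nrp2 (4.46 ± 0.13) and Sema3f (4.37 ± 0.15), with adjusted p-values of at most 1.54e-29. Lower were Sema4f (−2.52 ± 0.41), Sema4a (−2.48 ± 0.15), Sema4d (−2.39 ± 0.18), Plxna3, Sema7a, Sema5a and Plxnb1. LSEC thus held much Plxnc1 and little of its ligand Sema7a, at 1.76 ± 1.91 CPM.

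**Figure D2:**
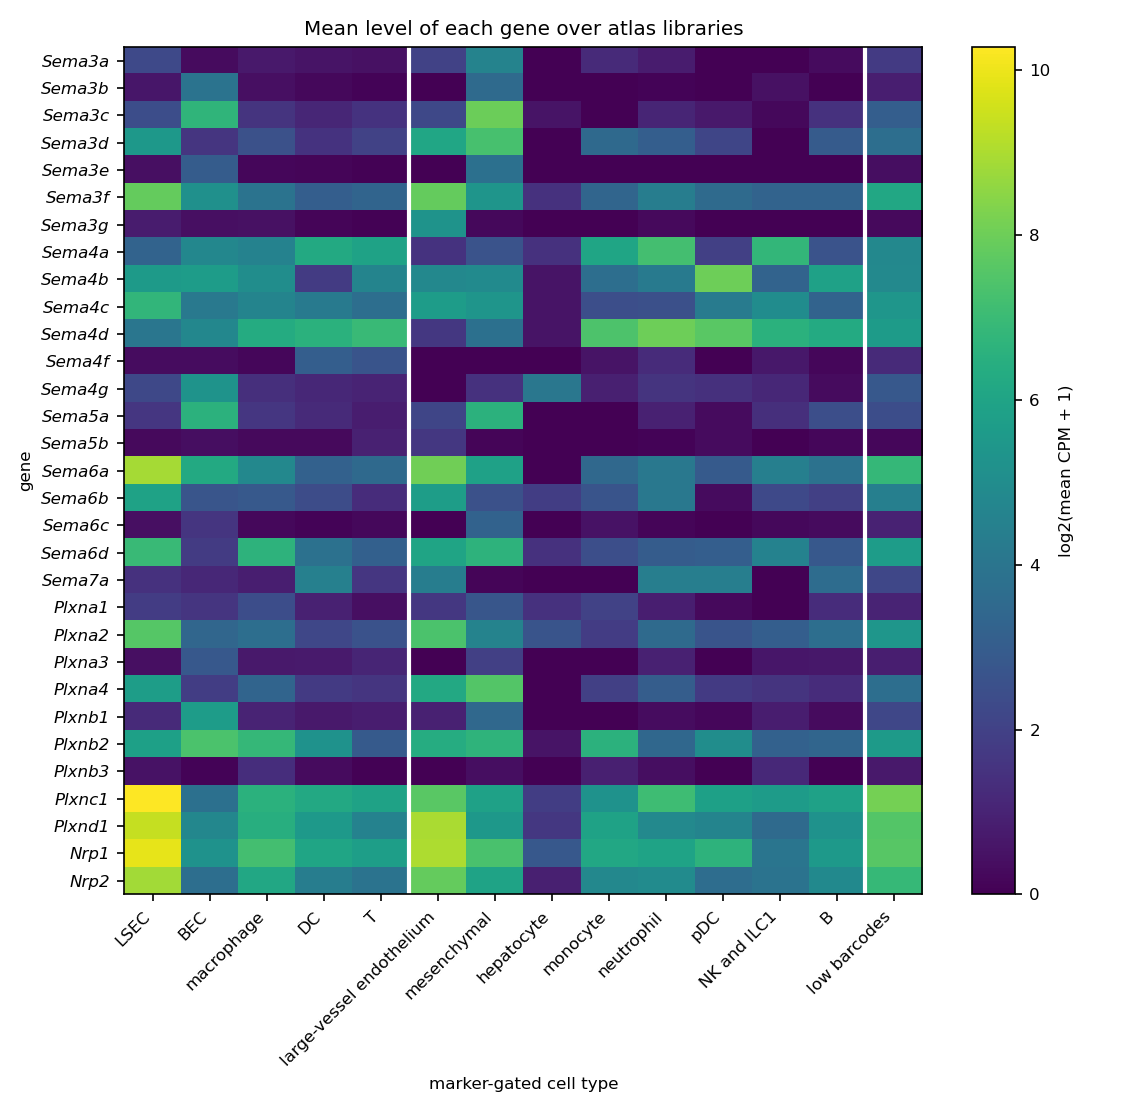
Mean CPM of each of the 31 genes, as log2(mean CPM + 1), over the atlas libraries with at least 20 cells of a type, for the 5 types compared and 8 other gated types. Barcodes of 10 to 100 UMIs are shown as a value pooled over all libraries including STOP. The brightest cells are Plxnc1, Nrp1 and Plxnd1 in LSEC, and Sema3c, Plxna4 and Sema3d are highest in mesenchymal cells.

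BEC, the epithelium of the bile ducts, carried another set, which held 3 plexins (Plxnb1, Plxnb2 and Plxna3), the secreted ligands Sema3b, Sema3c and Sema3e, and the membrane-bound ligands Sema4b, Sema4g, Sema5a and Sema6c. Plxnb2, a receptor of class 4 semaphorins, led with 162 ± 36.7 CPM (n = 9; 114 to 229) and was highest in BEC in 8 of 9 libraries, with macrophages next at 115 ± 41.9 (55.0 to 225). Plxnb1, the receptor of Sema4d, reached 50.9 ± 22.8 CPM (37.5 to 110) and at most 4.87 in any library of another of the 5 types. Sema3c, a secreted ligand of neuropilins, stood at 105.5 ± 24.3 (80.1 to 162) and Sema5a, a ligand with thrombospondin repeats, at 96.0 ± 33.5 (56.0 to 171). Each had its lowest BEC library above the highest LSEC library, which was 15.6 for Sema3c and 5.19 for Sema5a. Among the 5 types, Sema4g (38.1 ± 12.97), Sema3b (13.9 ± 7.95), Sema3e (7.01 ± 3.04) and Sema6c (2.04 ± 1.88) were highest in BEC in 9 of 9 libraries. Sema6c rested on 120 UMIs in all and on 2 to 4 in D3 B, D9 B and D19 A. Outside the 5 types, mesenchymal cells (8 libraries) had a higher mean of Sema3e (12.94 CPM, 2.96 to 39.66) and Sema6c (8.48, 0 to 15.99). Their means of Sema3b (10.68, 1.85 to 30.07) and Sema4g (1.78) were lower than in BEC. Sema4b was similar in BEC (50.95 ± 11.2) and LSEC (47.65 ± 9.62), with overlapping ranges.

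In the test BEC had 26 of 28 members called, 11 higher and 15 lower, beside 75.7% of all genes called and 37.6% called higher. The median log2 fold change was −0.55 for members and −0.03 for all genes. The largest rises were Sema5a (5.45 ± 0.20), Plxnb1 (5.14 ± 0.18), Sema3c (5.05 ± 0.20), Sema3e (4.92 ± 0.28) and Sema3b (4.89 ± 0.21), while Plxnb2 was higher by 1.74 ± 0.09. Sema6d (−4.02 ± 0.27), Plxnc1 (−3.75 ± 0.22), Nrp2 (−2.38 ± 0.21) and Nrp1 (−2.23 ± 0.17) were lower. Plxna2, counted among the lower members at −0.53 ± 0.22 (adjusted p = 0.030, edgeR), turned to 1.23 (adjusted p = 0.00017, edgeR) with a stricter gate, which asks for 4 markers of the own type and none of the 3 defining markers of each of the other 4 types, so its direction in BEC depends on the gate. Sema4d, the ligand of Plxnb1, was lower in BEC by 1.58 ± 0.19, and was found in the leukocytes below.

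Macrophages had few genes of their own and shared several with LSEC or BEC. Sema6d, a membrane-bound ligand of Plxna1, was found at 99.0 ± 59.0 CPM (32.8 to 221). Its protocol A libraries, at 98.8 to 221, did not overlap the protocol B libraries, at 32.8 to 70.5. Sema4d stood at 78.5 ± 31.5 and Plxnb2 at 115 ± 41.9 CPM. Plxna1, the receptor of Sema6d, was low at 4.36 ± 1.91 CPM but highest in macrophages in 9 of 12 libraries, and Plxnb3, a receptor of Sema5a, lay at 1.53 ± 1.02 on 130 UMIs. In the test 18 of 28 members were called, 9 higher and 9 lower, beside 62.7% of all genes called and 26.8% called higher, with a median log2 fold change of 0.06 for members and −0.14 for all genes. The rises were led by Sema6d (3.00 ± 0.15), Plxna1 (1.92 ± 0.16), Plxnb2 (1.67 ± 0.08) and Nrp2 (1.31 ± 0.14).

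DC carried class 4 and class 7 ligands. Sema7a, the ligand of Plxnc1, reached 21.6 ± 11.2 CPM (6.08 to 45.1). Among the 5 types it was highest in DC in 12 of 12 libraries, with T cells next at 2.12 ± 2.15. Outside the 5 types it was close to the DC level, at 20.2 ± 10.8 in neutrophils, 19.94 ± 10.25 in plasmacytoid DC and 19.4 ± 14.3 in large-vessel endothelium. Sema4a, a ligand known to co-stimulate T cells, stood at 74.4 ± 13.3 CPM in DC (42.0 to 91.5). It too was highest in DC among the 5 types in 12 of 12 libraries, although T cells followed at 59.3 ± 16.8. Outside the 5 types its mean was higher in neutrophils (146 ± 51.1) and in gated NK and ILC1 cells (111 ± 53.65). Sema4f lay at 7.39 ± 4.80 in DC and 5.44 ± 3.55 in T cells, and the 2 ranges overlapped. In the test 23 of 28 members were called in DC, beside 71.5% of all genes, and only 4 were higher, beside 30.6% of all genes. These 4 were Sema7a (4.33 ± 0.26), Sema4f (4.17 ± 0.26), Sema4a (2.05 ± 0.12) and Sema4d (1.43 ± 0.14). The median over members was −1.07, and −0.16 over all genes.

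Of the 5 types, T cells held the highest mean of Sema4d, which was long known as CD100 of lymphocytes, at 124 ± 61.1 CPM (36.9 to 274). DC (94.9 ± 27.1) and macrophages overlapped this range. Outside the 5 types the mean of Sema4d was higher in neutrophils (255 ± 76.5), plasmacytoid DC (198 ± 68.9) and monocytes (169 ± 59.9). T cells were called in 24 of 28 members, beside 72.2% of all genes, and 3 were higher, beside 34.6% of all genes, namely Sema4f (3.61 ± 0.30), Sema4d (1.54 ± 0.16) and Sema4a (1.30 ± 0.14). The median over members was −1.74, and −0.05 over all genes. The lowest was Plxnb2 (−3.28 ± 0.14), with 6.62 ± 4.25 CPM in T cells. Protocol A gave only 28 to 71 T cells per library.

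Part of the LSEC set was also counted outside LSEC, where free RNA can add UMIs. In barcodes of 10 to 100 UMIs, Plxnc1 stood at 282, Nrp1 at 194, Plxnd1 at 185, Nrp2 at 118 and Sema6a at 115 CPM. These barcodes were pooled over all libraries including STOP, which gave unequal parts of their 20849331 UMIs. STOP gave 4194600, D0 A 3652503, D25 B 3534571 and D25 A 39263. As a gauge, 5 endothelial genes used in no gate (Cdh5, Pecam1, Egfl7, Ptprb and Tie1) were summed, and their level in another type was divided by that in LSEC of the same library. The median was 6.74% in macrophages (2.11% to 15.5%), 1.84% in DC, 2.09% in T cells and 1.14% in BEC. In macrophages Plxnc1 (6.76% of its LSEC level), Sema6a (5.00%), Sema3f (5.02%) and Plxna2 (5.63%) lay near this gauge and exceeded it in 5, 1, 0 and 2 of 12 libraries. Nrp1 (16.2%), Nrp2 (17.5%) and Plxnd1 (13.2%) exceeded it in 11 of 12 libraries, and Sema4c (23.6%), Plxna4 (18.9%) and Sema6d (69.6%) in 12 of 12. In BEC Sema6a (13.3%), Sema3f (12.9%) and Sema4c (16.4%) exceeded the gauge in 9 of 9 libraries. In DC Plxnc1 (5.53%), Nrp1 (7.17%) and Plxnd1 (7.26%) did so in 12 of 12, whereas Sema6a (1.31%) did in 0. Doublets were not removed, and their part in these values was not tested.

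Cells outside the 5 types held the highest level of some genes. Mesenchymal cells, which include stellate cells and fibroblasts, had 1128 cells in 8 libraries and led for 8 genes. Among these 8 were Sema3c (254 ± 215 CPM), Plxna4 (182 ± 80.3), Sema3d (158 ± 82.2) and Sema5a at 96.2 ± 33.7, next to 96.0 ± 33.5 in BEC. Nrp1 was counted in them at 160 ± 92.8 CPM (19.8 to 257), below LSEC. Barcodes of 10 to 100 UMIs held it at 194 CPM, and the part of free RNA in the mesenchymal value was not tested. Their Sema3a lay at 22.9 CPM, above the 3.82 of LSEC, and their Plxna1 at 5.76 CPM. Plasmacytoid DC (1311 cells, 8 libraries) held Sema4b at 257 ± 97.0 CPM (149 to 478), where conventional DC held 2.42 ± 2.37 (0 to 8.94). Neutrophils (3363 cells, 11 libraries) held Sema4d at 255 ± 76.5 and Sema4a at 146 ± 51.1 CPM, against 48.4 and 27.2 CPM in barcodes of 10 to 100 UMIs. Large-vessel endothelium had only 117 cells in 4 libraries, and its Sema3g, an arterial ligand, stood at 38.1 ± 12.0 CPM on 27 UMIs, against 0.713 ± 1.02 on 96 UMIs in LSEC. It shared Plxnd1 (505 ± 58.3), Nrp1 (515 ± 227) and Sema3f (232 ± 46.7) with LSEC. Sema6a (263.6 ± 35.45), Nrp2 (228.5 ± 40.0) and Plxna2 (165 ± 30.4) were found in it as well. It had less Plxnc1 (197.5 ± 142, 75.4 to 382), whose mean lay below the 282 CPM of those barcodes. Most of these cells only just met the gate, with 17 of 25 at its minimum in D3 A, 31 of 48 in D5 A, 18 of 24 in D19 A and 14 of 20 in D25 A. These other types were not tested.

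Within DC several of the genes differed by subset. Subsets were gated by their own markers, with 2897 cDC1 in 10 libraries, 3813 cDC2 in 11 and 441 mature DC (Ccr7, Fscn1, Ccl22 and Cacnb3) in 8. In the summed values of a gate, fewer cells of a state and less RNA per cell cannot be told apart, here and in the comparisons by diet below. Sema7a ranged from 2.01 to 9.96 CPM in cDC1, 4.64 to 44.0 in cDC2 and 42.4 to 138 in mature DC. Its means rose from 5.49 ± 2.65 over 24.0 ± 12.7 to 75.8 ± 32.5, and cDC1 did not overlap mature DC. Plxnc1, its receptor, took the same order with 43.9 ± 22.6, 63.8 ± 25.6 and 300.3 ± 125 CPM, and the lowest mature DC library (132) lay above the highest of cDC2 (108). Sema4f was found in cDC1 at 15.5 ± 9.66 (6.16 to 37.9) and at no more than 1.42 CPM in any cDC2 library, with only 3 UMIs in all mature DC. Plxnb2 was highest in cDC2, with 57.6 ± 21.5 CPM against 18.6 ± 11.7 in cDC1 and 23.5 ± 14.1 in mature DC.

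**Figure D3:**
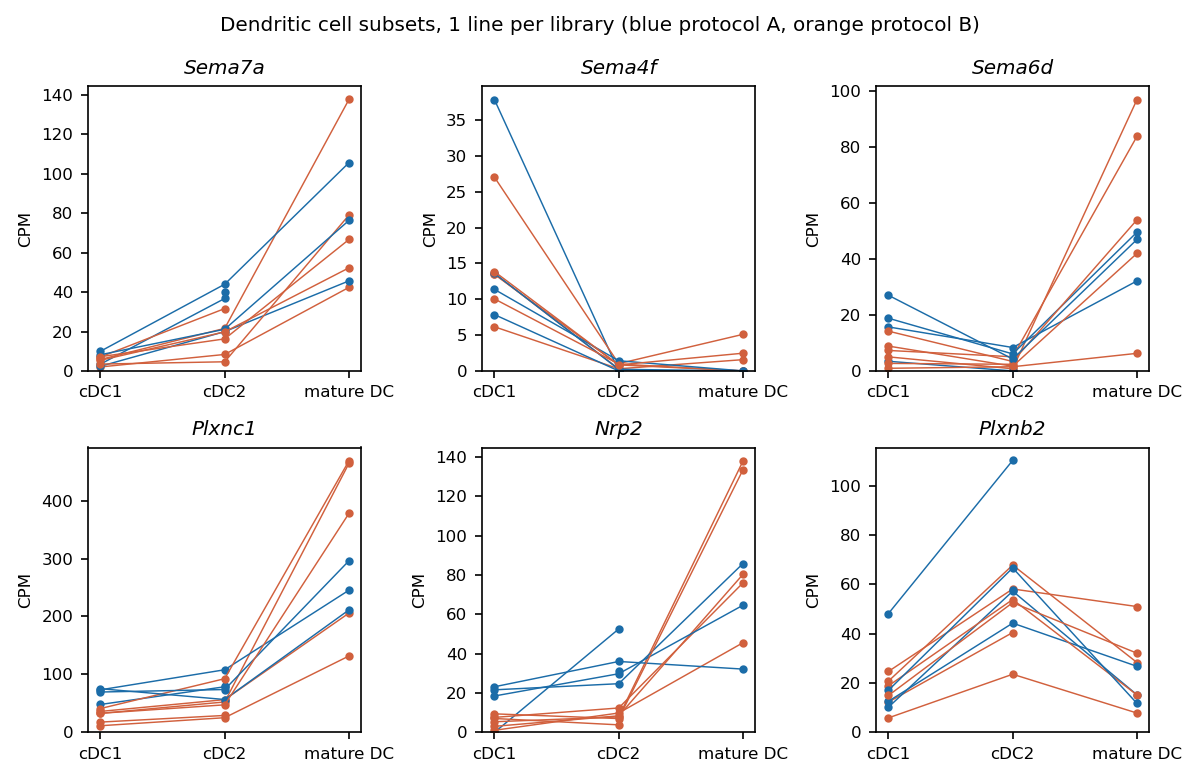
CPM of 6 genes in the DC subsets of each library, linear axes. Points are libraries with at least 20 cells of the subset, joined by lines within a library (blue protocol A, orange protocol B). By their means over libraries, Sema7a, Plxnc1, Nrp2 and Sema6d are highest in mature DC, Sema4f in cDC1 and Plxnb2 in cDC2, while in D3 A Nrp2 is higher in cDC2 (36.0 CPM) than in mature DC (32.2 CPM).

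Between cDC1 and cDC2 of the same libraries, edgeR called 11 of 21 members tested, beside 42.8% of all genes, and 3 were higher in cDC1, beside 21.0% of all genes. Higher were Sema4f (log2 fold change 4.25 ± 0.24), Sema5a (1.98 ± 0.70) and Sema6d (1.52 ± 0.26). Lower were Plxna1 (−2.96 ± 0.57), Sema7a (−1.79 ± 0.17), Plxnb2 (−1.71 ± 0.10), Plxnd1 (−1.34 ± 0.15), Sema4c, Sema4d, Plxnc1 and Sema6b, although Plxna1 rested on 4 UMIs in cDC1 and 43 in cDC2. The Sema5a call was lost without D3 B, D5 B, D9 B or D19 B (adjusted p = 0.0505 to 0.13, edgeR), and that of Sema6b without D5 A, D5 B, D9 A, D9 B, D19 B or D25 B (0.053 to 0.093). Mature DC against the mean of both had 10 of 20 members called, beside 43.7% of all genes, and 7 were higher, beside 19.5% of all genes. These were Sema6d (3.06 ± 0.29), Sema7a (3.00 ± 0.20), Nrp2 (2.89 ± 0.32), Plxnc1 (2.59 ± 0.15), Sema5a (2.28 ± 0.74), Plxnd1 (1.10 ± 0.17) and Sema4a (0.88 ± 0.11). Sema4f (−1.81 ± 0.67), Sema4d (−1.14 ± 0.11) and Nrp1 (−0.62 ± 0.19) were lower. All 19 UMIs of Sema5a in mature DC came from D3 B (12) and D9 B (7), with 0 in the other 6 libraries, and without either of these the gene did not pass the filter on low counts. Sema4f, with 3 UMIs in mature DC, lost its call without D3 B, D5 A, D5 B or D9 A (adjusted p = 0.052 to 0.12, edgeR).

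The diet was tested per type, with protocol as a term, as the mean of onset and progression against steady state and as progression against onset. Steady state had 2 libraries, or 1 for BEC, and this limits what could be detected. Member counts at an unadjusted p below 0.05 or by DESeq2 are given without the share of all genes, and are not set against it. In LSEC no member of 24 was called for either comparison, where 0.203% and 0.0290% of all genes were called. An unadjusted p below 0.05 was found for 4 and 6 members, and DESeq2 called 0 and 2. Plxnc1 in LSEC stood at 1412 (D0 A) and 758 (D0 B), 1208 to 1592 at onset and 745.5 to 1463 at progression, and the groups overlapped. Nrp1 stood at 1534 and 1005 CPM at D0, at 915 to 1257 at onset and at 591.5 to 1188 at progression, with a log2 fold change under diet of −0.34 ± 0.23 (adjusted p = 0.63). Sema3a in LSEC was 1.04 to 2.57 CPM at onset and 3.34 to 9.98 at progression, without overlap. Its change of 1.76 ± 0.41 between these stages had an adjusted p of 0.21 in edgeR's test and rested on 8 to 164 UMIs per progression library.

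In BEC no member of 26 was called for diet or for stage, where 1.01% and 0% of all genes were called, with 7 and 3 members at an unadjusted p below 0.05 and 2 and 0 called by DESeq2. Several genes were highest in the only steady-state library. Plxnb1 stood at 110 CPM in D0 A, against 37.5 to 55.6 in the 8 DDC libraries (−1.26 ± 0.26, adjusted p = 0.051 by edgeR). Sema6a stood at 182, against 42.3 to 96.9 (−1.43 ± 0.31, adjusted p = 0.058 by edgeR). Both are the genes that DESeq2 called. Sema5a (171 against 56.0 to 115) and Sema3c (162 against 80.1 to 114) also had no DDC library above D0 A, with changes of −0.90 ± 0.34 and −0.31 ± 0.29. Sema3e went the other way, at 2.55 CPM in D0 A (22 UMIs) against 3.16 to 11.8 (1.28 ± 0.57, adjusted p = 0.24 by edgeR). No second steady-state library bears on these values, and the tests assume that D0 A varies like the DDC libraries. In BEC the summed BEC markers were 4253 CPM in D0 A, 5058 to 5866 at onset and 5881 to 6697 at progression. Mesenchymal markers were 235, 66.9 to 82.85 and 34.9 to 104 in the same order. LSEC markers were 146, 49.0 to 81.9 and 30.3 to 162, and macrophage markers 70.7, 84.0 to 249 and 108 to 286. The part of these in the changes in BEC was not tested.

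In macrophages 2 of 23 members were called under diet, where 4.14% of all genes were called. Sema4c, a membrane-bound ligand of Plxnb2, fell by 1.35 ± 0.22 on the log2 scale (adjusted p = 0.0053, edgeR), and Plxna1 rose by 2.16 ± 0.48 (adjusted p = 0.026, edgeR). Sema4c under protocol A was 75.8 CPM at D0 and 31.1, 28.9, 29.8, 16.6 and 20.4 at D3, D5, D9, D19 and D25. Under protocol B it was 29.3 at D0 and 12.8, 11.7, 11.8, 8.87 and 10.1 on the same days. Within each protocol D0 was highest, and across protocols D0 B lay among the DDC libraries of protocol A. Plxna1 was 1.47 (D0 A, 5 UMIs) and 0.887 (D0 B, 1 UMI) at steady state and 2.74 to 7.06 in the 10 DDC libraries, which did not overlap. With protocol A alone the changes were −1.17 for Sema4c and 2.19 for Plxna1 (adjusted p = 0.095 and 0.086, edgeR), and with protocol B alone −1.59 and 2.14 (adjusted p = 0.032 and 0.29, edgeR). Each of these fits had 1 steady-state library, which is assumed to vary like the DDC libraries. Without D0 A, which leaves D0 B alone, the Plxna1 change was 2.23 (adjusted p = 0.21, edgeR), and without the protocol term the adjusted p of Sema4c was 0.15 in edgeR's test.

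Other values moved with the diet in these cells. Gpnmb, a gene of lipid-associated macrophages, was 15.3 and 23.1 CPM in the D0 libraries and 201 to 1796 in the DDC libraries. Gpnmb, Clec4f, Cd5l and Vsig4 all belong to the macrophage panel, so their levels are not independent of the gate. Of the Kupffer cell genes under protocol A, D0 A was highest for Clec4f (3475 against 762 to 2068), Cd5l (3973 against 1747 to 2957) and Vsig4 (1827 against 555 to 1297). Under protocol B, D0 B was highest for Clec4f (496 against 223 to 485), lowest for Cd5l (438 against 457.5 to 1136) and within the range for Vsig4 (276 against 247 to 595). The mitochondrial share of macrophage UMIs was 0.949% in D0 B and 2.32% to 5.11% in the other libraries. The summed LSEC markers in macrophages overlapped between stages, at 226 to 1083 CPM at D0, 465 to 1244 at onset and 443 to 1000 at progression. Those of mesenchymal cells were 3.55 to 1012 CPM at D0, 23.2 to 109.5 at onset and 22.8 to 268 at progression. Those of DC were 259 to 455, 182 to 278 and 136 to 215 in the same order. The part of these in the changes of Sema4c and Plxna1 was not tested. Another 6 members had an unadjusted p below 0.05, among them Nrp2 (0.75 ± 0.21, adjusted p = 0.063 by edgeR), Sema4d (1.18 ± 0.37, 0.090) and Plxnd1 (0.58 ± 0.18, 0.098), and DESeq2 called 4 in all. Between onset and progression 0 of 23 members were called, where 0.130% of all genes were, with 6 at an unadjusted p below 0.05 and 1 called by DESeq2. In LSEC Sema4c changed by −0.22 ± 0.22. The difference between the diet effects in macrophages and LSEC was tested directly and called for 0 of 25 members and for 0% of all genes, with 4 at an unadjusted p below 0.05 and 0 called by DESeq2. For Sema4c it was −1.12 ± 0.38 (adjusted p = 0.30, edgeR).

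**Figure D4:**
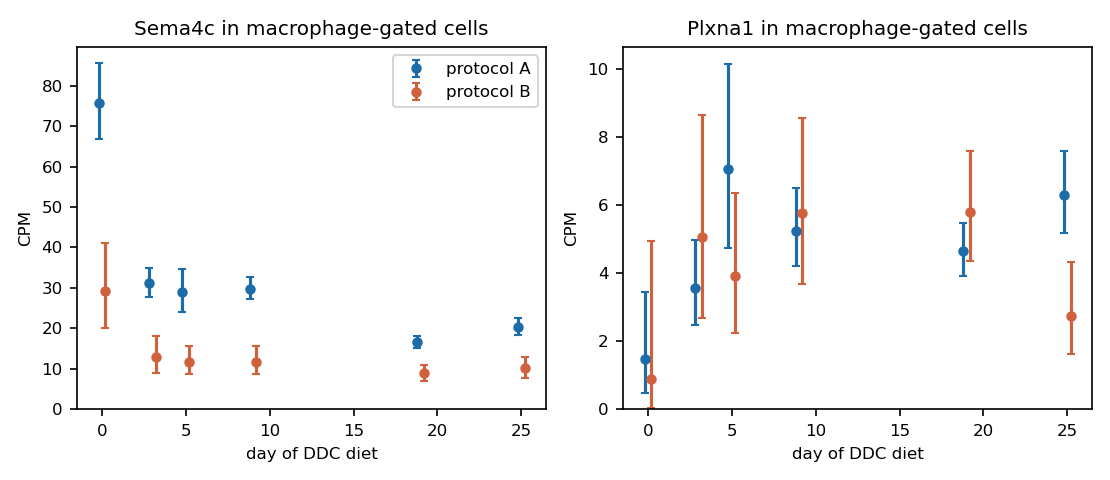
CPM of Sema4c and Plxna1 in macrophage-gated cells by day of DDC diet (D19 B is labelled as day 18), linear axes. Points are libraries (blue protocol A, orange protocol B) and bars are exact Poisson intervals at 95%, which cover counting error only. Sema4c is highest at day 0 within each protocol, and Plxna1 is lowest there on 5 and 1 UMIs.

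In DC no member of 24 was called for diet or stage, where 0.280% and 0% of all genes were called, with 7 and 1 members at an unadjusted p below 0.05 and 1 and 0 called by DESeq2. In T cells no member of 19 was called, where 0.231% and 0.0342% of all genes were called, with 4 and 2 members at an unadjusted p below 0.05 and none called by DESeq2. Sema4d was lowest in D0 B in both types, at 35.9 CPM in DC and 36.9 in T cells, while D0 A stood at 86.7 and 85.6. The DDC libraries ranged from 70.5 to 135 in DC and from 76.0 to 274 in T cells, so that D0 A lay within both ranges. The change was 0.82 ± 0.26 in DC and 1.24 ± 0.39 in T cells (adjusted p = 0.15 and 0.17, edgeR). The mitochondrial share of D0 B moved with this value, at 0.642% in DC, as given above, and at 1.36% in T cells against 2.97% to 10.5% in the other libraries, and its part was not tested.

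**Figure D5:**
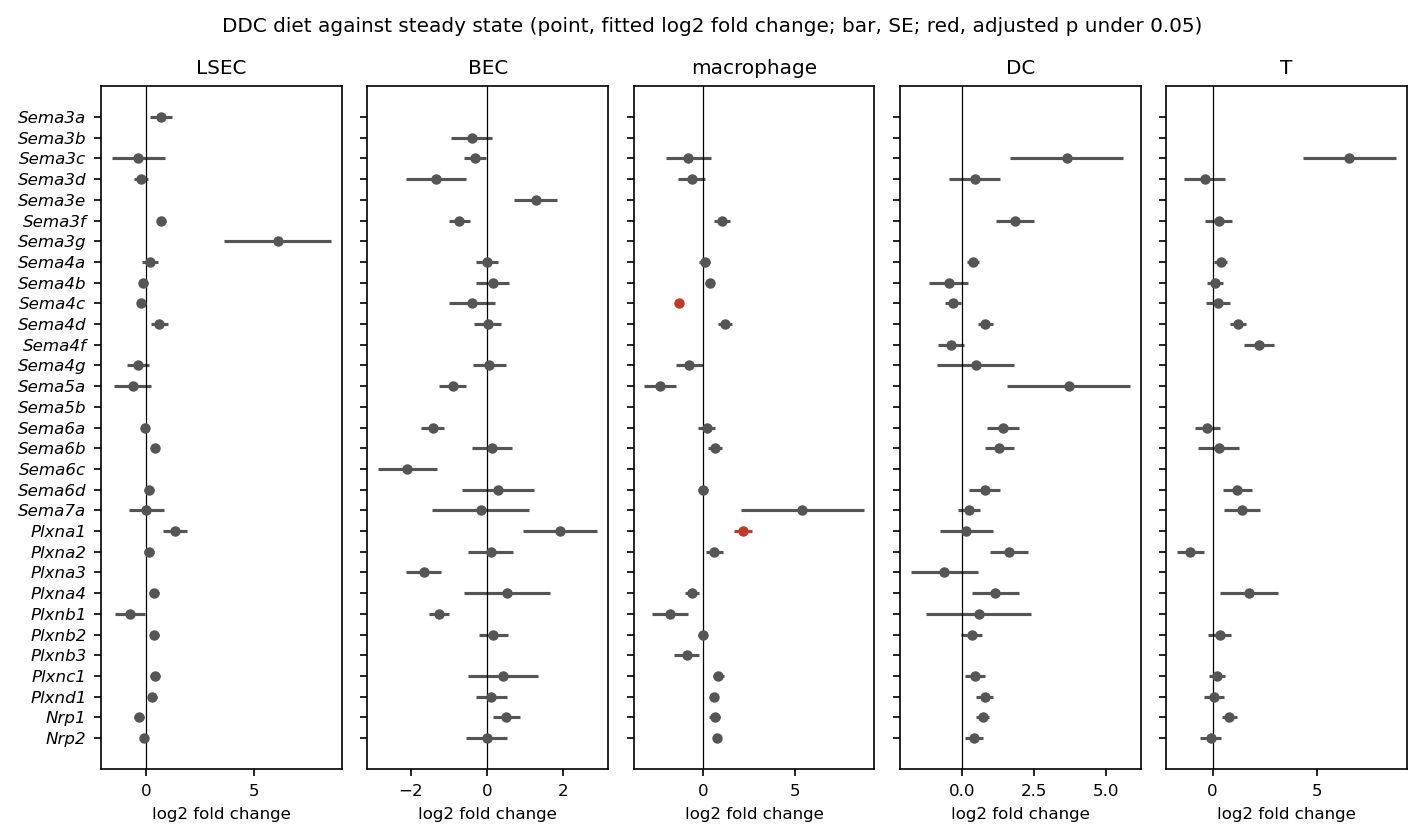
Fitted log2 fold change of each member under DDC diet against steady state in 5 cell types, with separate linear axes. Points are edgeR estimates, bars are SE and red marks an adjusted p under 0.05, reached by Sema4c and Plxna1 in macrophages. Genes without a point did not pass the filter on low counts, and estimates with wide bars rest on few UMIs.

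The recovery library was set beside D19 B, 1 of 5 DDC libraries of the same protocol, with no test since each is 1 library. Of 109 values with at least 20 UMIs over both libraries, 27 were past 2-fold, 25 higher and 2 lower in recovery. These directions are given without the share of all genes higher or lower, and are not set against it. In LSEC these were 0 of 22, where 12.6% of all such genes were past 2-fold, and Plxnc1 stood at 986 in D19 B and 1083 in recovery. In BEC they were 3 of 23 (11.8% of all genes), with Sema4c lower at 11.6 (8.04 to 16.2) after 29.2 (25.0 to 33.9), as CPM with exact 95% Poisson intervals for counting error. In macrophages they were 7 of 19 (15.2% of all genes). Nrp2 was lower there at 43.5 CPM (36.6 to 51.3) after 89.3 (83.3 to 95.7), and Sema4c was higher at 18.5 (14.1 to 23.8) after 8.87 (7.04 to 11.02). In DC they were 8 of 21 (19.7% of all genes) and in T cells 9 of 24 (18% of all genes), all higher, among them Nrp2 at 29.8 after 9.90 CPM in DC and 28.5 after 7.02 in T cells, and Sema6a at 23.9 after 5.81 and 15.8 after 5.00. The summed LSEC markers moved with these values, from 205 to 442 CPM in DC, 132 to 334 in T cells, 443 to 592 in macrophages and 95.9 to 177 in BEC. Ribosomal protein genes went from 16.5% to 13.7% of UMIs in DC and from 21.4% to 16.7% in T cells. In LSEC they went from 7.94% to 8.01%, in macrophages from 9.74% to 9.46% and in BEC from 8.12% to 7.02%. Of the macrophage panel genes, Gpnmb in macrophages went from 1796 to 299.5 CPM, Clec4f from 482.5 to 972, Cd5l from 997 to 1994 and Vsig4 from 595 to 603. The part of these in the changes was not tested. With the stricter gate 10 values were past 2-fold, given here without the number that had enough UMIs or the share of all genes.

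Genes that work with semaphorins were counted from 3 lists, in the same test of each type against the other 4. The share of all genes called higher was 39.1% in LSEC, 37.6% in BEC, 26.8% in macrophages, 30.6% in DC and 34.6% in T cells, and the share called lower was 38.5%, 38.1%, 35.9%, 40.9% and 37.5% in the same order. The counts below stand beside these shares, and with 7 to 23 genes tested per list several lie near them. Of the VEGF ligands and receptors, 5 of 7 tested were higher in LSEC and 2 lower, led by Kdr (5.95 ± 0.21) and Flt4 (5.65 ± 0.19), the receptors of VEGF-A and VEGF-C, while the ligands Pgf (−1.34) and Vegfa (−0.48) were lower. In BEC 2 of 7 were higher, led by Vegfa (1.95 ± 0.20), and 3 lower. In macrophages 1 was higher (Vegfa, 1.11) and 0 lower, in DC 1 was higher (Pgf, 2.11) and 6 lower, and in T cells 0 were higher and 7 lower.

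Of the receptor partners, 8 were tested. In BEC 3 were higher, led by the receptor kinases Erbb2 (3.55 ± 0.18) and Met (3.42 ± 0.16), which associate with B-type plexins, and 5 lower. In LSEC 4 were higher, led by the integrin subunit Itga1 (4.06 ± 0.15) and Erbb2 (2.36 ± 0.18), and 4 lower, led by Cd72 and Met. In macrophages 2 were higher, Tyrobp (3.40 ± 0.16), an adaptor of the Plxna1 complex, and Cd72 (2.99 ± 0.16), a receptor of Sema4d, and 3 lower. In DC 4 were higher, led by L1cam (2.63 ± 0.15) and Tyrobp (2.38 ± 0.16), and 3 lower, while T cells had 1 higher (L1cam, 1.18) and 5 lower.

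Of the genes of plexin signal transduction, 23 were tested, and 14 were higher in LSEC, 12 in BEC, 7 in macrophages, 10 in DC and 6 in T cells. The lower ones numbered 3, 8, 8, 10 and 14 in the same order. Macrophages (7 of 23 beside 26.8%) and T cells (6 of 23 beside 34.6%) lay near the share of all genes called higher. LSEC were led by Dpysl3 (4.16 ± 0.17) and Arhgef12 (3.22 ± 0.10), an exchange factor for RhoA bound by B-type plexins. BEC were led by Dpysl4 (5.98 ± 0.24) and Farp1 (2.63 ± 0.12), DC by the kinases Pak1 (3.26 ± 0.17) and Fes (1.91 ± 0.10), and T cells by Fyn (1.93 ± 0.12). For diet in macrophages, 1 of 22 genes tested from this list was called, Rras (−0.99 ± 0.19, adjusted p = 0.013, edgeR), a GTPase acted on by plexins, beside 4.14% of all genes. In BEC 1 of 9 receptor partners passed the threshold, Tyrobp (3.55 ± 0.61, adjusted p = 0.037, edgeR), beside 1.01% of all genes, in the fit that has D0 A as its single steady-state library. Tyrobp is an adaptor of leukocytes, and the summed macrophage markers in BEC were 70.7 CPM in D0 A and 84.0 to 286 in the DDC libraries. Their part was not tested. No other gene of the 3 lists was called by diet or stage in the 5 types.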

How the data were processed

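Single-cell libraries were made with Chromium 3′ v3.1 kits. The matrices deposited by the authors hold UMI counts as kallisto gave them, unnormalized and over unfiltered barcodes, and the submitters' processing notes name GRCm38 as the build (the tool's version is not given in the sources used here). Reads shared by near-identical genes may be split by this counting. Barcodes with at least 1500 UMIs, the minimum of the study's methods, were gated by marker panels and UMIs summed per library and type with at least 20 cells. No doublet caller was run.

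The members, lists and comparisons were chosen with earlier results of these data known, and the gating rule after cells had been seen. Every member was accounted for, and from each pathway list at most the 2 called genes with the largest change in each direction were named. Sums were compared in edgeR 4.0.16 (R 4.3.3) by its quasi-likelihood test with TMM, filterByExpr and Benjamini-Hochberg adjustment at 0.05. Types and DC subsets were compared with the library as a block, and diet stages with protocol as a term. The SE is the size of a log2 fold change over the square root of F. The subset comparisons, the difference between macrophages and LSEC, the fits within a protocol and leaving out libraries in the order of types were added after seeing the data. The fits were also run on simulated data, in which groups differed only in chosen genes and libraries only in size and random spread. The real types differed in most genes tested, and the outcome on simulated data is not given here. Alternatives were DESeq2 1.42.0, leaving out filterByExpr, a minimum of 3000 UMIs, a stricter gate (4 own markers and none of the 3 defining markers of each of the other 4 types compared), no block and leaving out each library. Promoters came from a RefSeq table of GRCm38.p6. The smallest sum tested held 120544 UMIs (T cells of D19 A) and the smallest of the untested types 61235 (B cells of D5 B). Intervals and floors cover counting error only.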

Additional observations from a re-analysis of the deposited data

Results flagged for a closer look

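Of 79 groups of 4 to 10 libraries, 4 had a library that lay further from the others than chance gives in about 1 of 20 groups, and about 4 of 79 are what that rate gives. Sema3d in LSEC stood at 68.4 CPM in D5 A, against 39.7 to 42.5 in the other onset libraries (n = 4). Sema4a in T cells stood at 17.6 CPM in D3 A, against 60.7 to 68.8 in the other onset libraries (n = 4), and D3 A held only 29 T cells. In BEC of D19 B, Sema6a stood at 77.1 CPM against 42.3 to 54.3 in the other progression libraries and Plxna3 at 6.82 against 3.88 to 4.79 (n = 6 each).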

How the results depend on the processing

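Under the alternatives, 138 called log2 fold changes gave 2598 values, of which 2449 kept direction and call, 145 lost the call and 4 reversed, and 88 of the 138 kept both in all. Plxna2 in BEC reversed to a call in the other direction (1.23, adjusted p = 0.00017, edgeR) with the stricter gate. The other reversed values, Plxnb2 in DC (0.02) with that gate, and Plxna1 in DC (0.46) and Sema3b in macrophages (0.43) with protocol A alone, had adjusted p-values of 0.84 to 0.90 in edgeR. The stricter gate changes 2 choices together, the number of own markers and the absence of other types' markers, and their parts were not separated. The cause was not tested. The member counts that follow are given without the share of all genes called under the same alternative, and are not set against it. DESeq2 called 2 members for progression against onset in LSEC, 2 for diet in BEC, 4 for diet and 1 for stage in macrophages and 1 for diet in DC. With no filter on low counts the counts were 4 for stage in LSEC, 2 for diet and 1 for stage in BEC, 7 for diet and 3 for stage in macrophages, 1 for diet in DC, 2 for diet in T cells and 2 for the difference between macrophages and LSEC. The stricter gate gave 4 for diet in macrophages, 1 in T cells (Sema4d), and 10 values past 2-fold in recovery. Protocol A alone gave 15 members called in T cells against other types, 0 for diet in macrophages and 6 for cDC1 against cDC2, and protocol B alone gave 2 for diet in T cells and 1 for the difference between macrophages and LSEC. Without the replicate block, 2 members were called for diet in BEC, 1 in macrophages and 7 for cDC1 against cDC2. The block or protocol term changed no other count by over 1.5 times. The difference between macrophages and LSEC was not run without the block, nor diet in BEC within a protocol. Leaving out 1 library gave 0 to 2 for diet in BEC, 2 to 4 in macrophages, 0 to 1 in DC and 0 to 2 in T cells. For diet, leaving out D0 A gave Sema4d in DC, Sema4d and Sema4f in T cells and, in macrophages, Nrp1, Plxnc1 and Sema4c, while leaving out D0 B gave Sema4d, Plxna1, Sema5a and Sema4c in macrophages. These fits, like those within a protocol, have 1 steady-state library, which is assumed to vary like the other groups. Leaving out D3 B gave Sema6a and Plxnb1 in BEC, and leaving out D25 B gave Plxnb1. With 2 steady-state libraries, and 1 for BEC, the depth and number of libraries limit every comparison with steady state.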
